A study of Homo sapiens with 4 samples.

Results

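The regions described here lie in the 4 human HOX clusters and on the miR-10 and miR-196 hairpins inside them. They were chosen by position alone, as the rows of a deposited list of Argonaute PAR-CLIP regions that overlap, by at least 1 nt and on either strand, HOXA (chr7:27132614-27250000), HOXB (chr17:46606807-46806111), HOXC (chr12:54332576-54449814) or HOXD (chr2:176957532-177055635) of the human genome build hg19. The rule took 632 of 211947 regions, 0.298% of the list: 225 in HOXA, 134 in HOXB, 117 in HOXC and 156 in HOXD. PAR-CLIP feeds cells a photoreactive uridine, uses ultraviolet light to fix bound RNA to a protein, and reads the RNA recovered by precipitating that protein. The libraries were 3 of AGO1, from HEK293 lines (human embryonic kidney cells) that stably express a His/FLAG/HA-tagged protein, precipitated with an antibody to FLAG, and 1 of AGO2, from HEK293 cells for which the library's own labels name no tag, precipitated with the antibody AGO2 11A9. The photoreactive uridine was 4-thiouridine, given for 16 h at 200 µM in the AGO1 cells and at 100 µM in the AGO2 cells, with crosslinking at 365 nm. The list has no value per library, and which of these libraries entered it is not stated. It gives each region 1 score, a whole number from 1 to 1000 whose meaning the files and labels do not state. AGO1 and AGO2 could therefore not be compared, values come without replicate error, and depth is unknown.

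HOX genes encode homeodomain transcription factors that give cells their position along the body axis. They lie in order in each cluster, and paralogues of the same number sit at matching places. Argonaute proteins carry microRNAs, which guide them to messenger RNAs mostly through the seed near the microRNA's 5′ end. The miR-10 and miR-196 families are encoded between HOX genes, and HOX messenger RNAs are among their known targets, HOXB8 for miR-196 and HOXD10 for miR-10b.

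The rule places 5 hairpins in the clusters: MIR196B in HOXA, MIR10A and MIR196A1 in HOXB, MIR196A2 in HOXC and MIR10B in HOXD. The mature arms are shown first because the members of highest score, 485, 312 and 301, lie on MIR10A, MIR196B and MIR10B. Sequences are from RefSeq (GRCh38.p14 tables), 5′ to 3′, with the seed, bases 2 to 8, in capitals.
hsa-miR-10a-5p: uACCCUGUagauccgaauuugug
hsa-miR-10a-3p: cAAAUUCGuaucuaggggaaua
hsa-miR-10b-3p: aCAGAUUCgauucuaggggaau
hsa-miR-196a-5p: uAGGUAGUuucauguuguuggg
hsa-miR-196b-5p: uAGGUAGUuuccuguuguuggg
hsa-miR-196a-1-3p: cAACAACAuuaaaccacccga
hsa-miR-196a-3p: cGGCAACAagaaacugccugag
hsa-miR-196b-3p: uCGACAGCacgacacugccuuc
Of these, hsa-miR-196a-5p and hsa-miR-196b-5p share their seed. They differ at 1 position, A12C, counted from 1 at the 5′ end with the base of hsa-miR-196a-5p first. The 3p arms each have a seed of their own. The mature arm hsa-miR-10b-5p belongs to MIR10B, but its sequence was not among those used here, so its seed was not compared.

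All 5 hairpins carried Argonaute regions on their own strand. The 7 regions there were 1.11% of the members and held 21.8% of the members' summed score, 1244 of 5701. In the hairpins below, capitals mark the mature arms, and the regions on them are given by their first and last nucleotide counted from 1 at the hairpin's 5′ end.
MIR10A: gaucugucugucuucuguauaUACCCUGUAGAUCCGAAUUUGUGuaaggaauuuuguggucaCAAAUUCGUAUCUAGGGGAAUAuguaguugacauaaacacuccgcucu
MIR196B: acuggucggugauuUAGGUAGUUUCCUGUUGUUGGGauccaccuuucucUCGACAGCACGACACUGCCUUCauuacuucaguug
MIR196A1: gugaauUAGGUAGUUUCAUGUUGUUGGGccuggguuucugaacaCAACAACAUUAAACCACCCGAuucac
MIR196A2: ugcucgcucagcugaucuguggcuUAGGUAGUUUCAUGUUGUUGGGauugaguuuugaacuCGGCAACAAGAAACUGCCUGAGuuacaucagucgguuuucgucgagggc

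MIR10A (chr17:46657200-46657309, minus strand) held the member with the highest score of all. Its region, chr17:46657204-46657291, was 88 nt wide with a score of 485, number 32 in the whole list by score. It ran from nucleotide 19 to 106 of the 110-nt hairpin and so held both arms. This 1 region held 34.3% of the summed score on the HOX strand of HOXB, where the median score was 3. The 1-nt position that the authors give inside each region fell on nucleotide 29, which is base 8 of hsa-miR-10a-5p, the last base of its seed.

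MIR196B (chr7:27209099-27209182, minus strand) and MIR10B (chr2:177015031-177015140, plus strand) also had 1 wide region each on their strand. At MIR196B it was chr7:27209102-27209169, 68 nt wide, with a score of 312 (number 66 in the list). It ran from nucleotide 14 to 81 of 84, over both arms, with the inner position on base 13 of hsa-miR-196b-5p. At MIR10B it was chr2:177015038-177015142, 105 nt wide, with a score of 301 (number 73 in the list). It ran from nucleotide 8 to 112, which is 2 nt past the hairpin's end, and the inner position fell on nucleotide 34. These regions were the highest of HOXA and HOXD, with 14.1% and 26.6% of the summed score on the HOX strand there.

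The hairpins of miR-196a had 2 narrow regions each, 1 on each arm, and the arm of higher score was not the same. At MIR196A1 (chr17:46709852-46709921, minus strand) the 3p region, chr17:46709856-46709881, had a score of 67 and the 5p region, chr17:46709891-46709915, a score of 8. The 3p region held all 21 nt of hsa-miR-196a-1-3p with 4 nt before it and 1 nt after it. At MIR196A2 (chr12:54385522-54385631, plus strand) the 5p region, chr12:54385546-54385571, had a score of 63 and the 3p region, chr12:54385579-54385604, a score of 8. Both 5p regions began on the first base of hsa-miR-196a-5p and ran past its last base, by 3 nt at MIR196A1 and by 4 nt at MIR196A2. The 22 nt of hsa-miR-196a-5p are the same in both hairpins, and with 1 nt before them form a shared stretch of 23 nt, after which the hairpins differ. How reads that match both places were handled is not stated in the files or labels, so the split of the 5p score between MIR196A1 and MIR196A2 is uncertain.

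**Figure D1:**
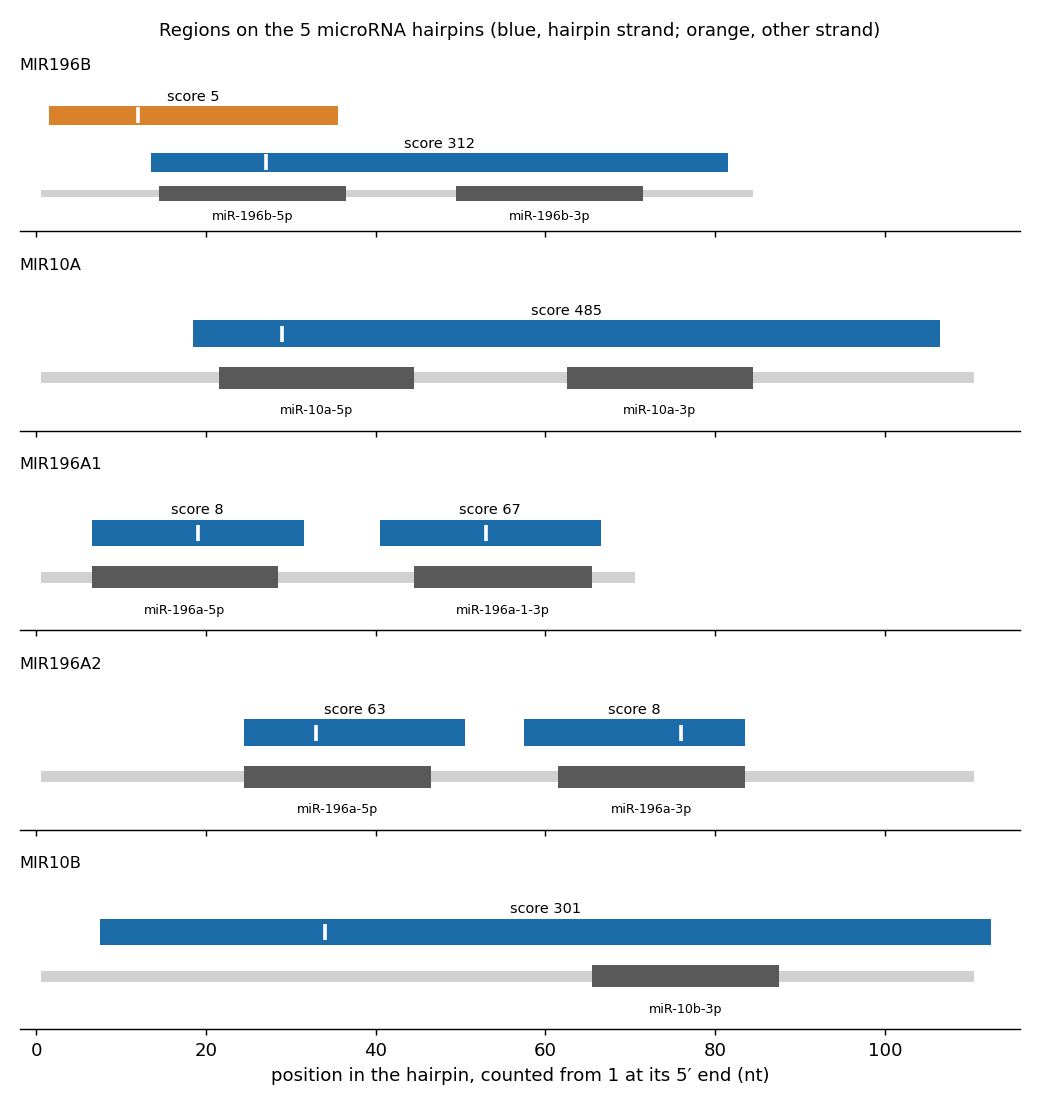
Regions on the 5 hairpins by position from the hairpin's 5′ end in nt (grey bar, hairpin; dark grey, mature arms named in the RefSeq table; blue, region on the hairpin's strand; orange, region on the other strand; white mark, the inner position). MIR10A, MIR196B and MIR10B each have 1 wide region with scores of 485, 312 and 301, and the miR-196a hairpins have 2 narrow ones, with the higher score on the 3p arm at MIR196A1 (67) and on the 5p arm at MIR196A2 (63).

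Around the hairpins, other regions of the same strand were few and weak. No other region of the same strand lay within 1000 nt of MIR196A1, MIR196A2 or MIR10B. The nearest to MIR10B was chr2:177016571-177016591, 1430 nt downstream with a score of 2, and the nearest to MIR196A2 was chr12:54384218-54384248, 1273 nt upstream, also with a score of 2. MIR196A1 stood farthest off, with its nearest neighbour 2733 nt upstream (chr17:46712655-46712679, score 8). MIR10A had 2 regions within 1000 nt, with scores of 2 and 1 at 508 and 537 nt upstream. MIR196B had 1, with a score of 1 at 361 nt upstream, and farther upstream, at 1084 nt, began a group of regions led by chr7:27210267-27210429 with a score of 68.

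Most regions lay on the strand of the HOX genes. In the RefSeq table that strand is minus for HOXA and HOXB and plus for HOXC and HOXD, a strand being listed for 9 of 11, 1 of 10, 2 of 9 and 8 of 9 HOX genes. Of the 632 regions, 573 lay on the HOX strand and 59 on the other (90.7%, Wilson 95% interval 88.1 to 92.7). The intervals cover counting error only, since neighbouring regions are not independent. The HOX strand had 128 of 134 regions in HOXB (95.5%, 90.6 to 97.9), 110 of 117 in HOXC (94.0%, 88.2 to 97.1), 142 of 156 in HOXD (91.0%, 85.5 to 94.6) and 193 of 225 in HOXA (85.8%, 80.6 to 89.7). By summed score the HOX strand held 96.7% over the 4 clusters.

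The clusters were dense islands on their chromosomes. HOXA had 19.2 regions per 10 kb, against 0.606 on the rest of chromosome 7, counted between its first and last region. HOXD had 15.9 per 10 kb, against 0.631 on the rest of chromosome 2. HOXC had 9.98, against 0.946 on the rest of chromosome 12, and HOXB had 6.72, against 1.42 on the rest of chromosome 17. The 50 kb beyond each edge of each cluster held 0, 1 or 2 regions. Other groups of genes that lie close together were not compared. The files give no RNA level, so more bound RNA and more transcribed RNA cannot be told apart.

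**Figure D2:**
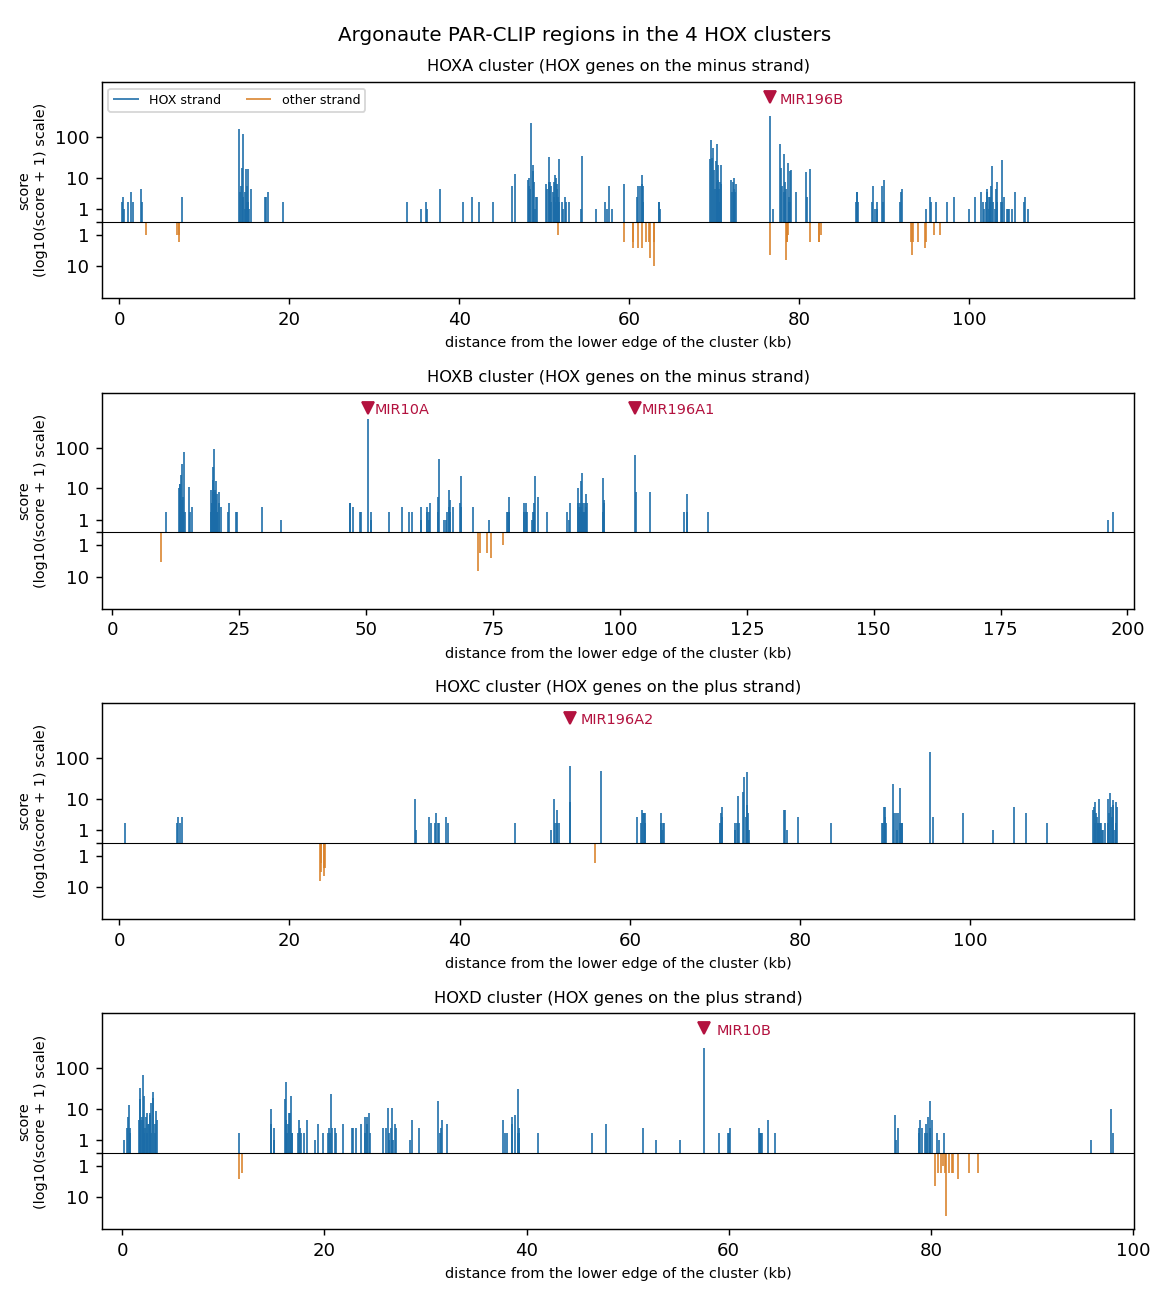
Score of each region, on a log10(score + 1) scale, against its distance in kb from the lower edge of the HOXA, HOXB, HOXC and HOXD clusters. Blue lines up are the 573 regions on the strand of the HOX genes, orange lines down the 59 on the other strand, and red marks the 5 hairpins, where the lines reach 485 at MIR10A, 312 at MIR196B and 301 at MIR10B.

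The hairpins divide the clusters into segments, whose genes were read from the gene order in RefSeq, with no coordinate taken from that build. Regions were not assigned to single genes, because no hg19 annotation was used here. Some gene models cross a hairpin: HOXB3 extends past MIR10A, the readthrough gene HOXA10-HOXA9 and HOXA10-AS hold MIR196B, and HOXB-AS4 holds MIR196A1. The counts below leave out the hairpin regions and the other strand.

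In HOXA, the segment below MIR196B, on the side of HOXA9, held 120 regions (62.5%, 55.5 to 69.0) and that from HOXA10 to HOXA13 held 72. HOXA9 is known for its role in blood progenitors and HOXA13 for the limb ends and the urogenital tract. Per length the segments were close, at 15.7 and 17.6 regions per 10 kb, but the HOXA9-side segment had 76.6% of the score, with a highest score of 212, against 68 in the HOXA10 to HOXA13 segment. Scores of 10 or more were held by 26 regions of the HOXA9-side segment (21.7%) and by 10 of the HOXA10 to HOXA13 segment (13.9%). Over all nuclear regions of the list 11.0% had such a score.

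In HOXB, the segment from HOXB1 to HOXB4 held 46 regions, that from HOXB5 to HOXB9 held 72, and the part beyond MIR196A1, where HOXB13 lies, held 7. HOXB13 is a posterior gene known for its role in the prostate. The HOXB1 to HOXB4 segment had fewer regions than the HOXB5 to HOXB9 segment and more of the summed score, 482 against 347. The segment of HOXB13 was 96.2 kb long and had a summed score of 24, and none of its regions scored above 8. Within it no region on either strand lay in the 78.9 kb from 46724115 to 46803005 on chromosome 17, which is 39.6% of the cluster, and 2 regions followed near its upper edge, the highest with a score of 2.

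HOXC and HOXD each had 1 full and 1 sparse side. In HOXC the segment from HOXC9 to HOXC4 held 86 regions (79.6%, 71.1 to 86.1) and 90.2% of the score, whereas that from HOXC13 to HOXC10 held 22 regions with a highest score of 10. In HOXD the segment from HOXD13 to HOXD8 held 109 regions (77.3%, 69.7 to 83.4) and 86.9% of the score, and that from HOXD4 to HOXD1 held 32 regions with a highest score of 16. HOXD13 is known for digit formation and HOXD10 as a target of miR-10b. The full side was thus that of the posterior genes in HOXD and that of the more anterior genes in HOXC, with 18.9 and 13.4 regions per 10 kb.

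**Figure D3:**
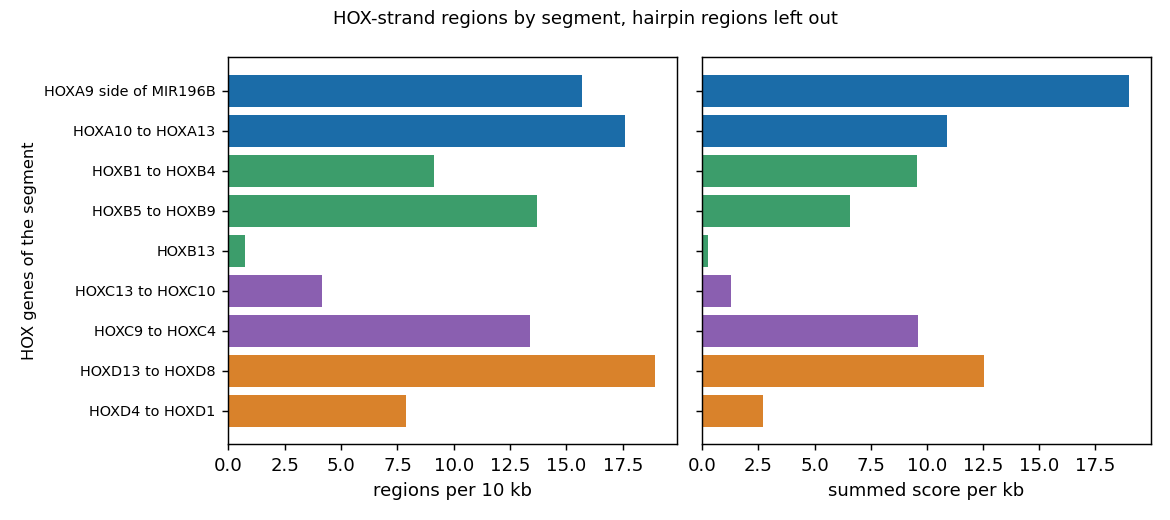
Regions per 10 kb (left) and summed score per kb (right) on the HOX strand of the segments between hairpins, named by the HOX genes that RefSeq places in them, with hairpin regions left out and 1 colour per cluster. The HOXD13 to HOXD8 segment has the most regions per 10 kb (18.9), the HOXA9-side segment the highest summed score per kb (19.0), and the HOXB13 segment is lowest in both (0.727 and 0.249).

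High scores were few, and all of those of at least 100 were on the HOX strand. They numbered 7 (1.11% of the members, Wilson 95% interval 0.538 to 2.27), against 0.248% of all nuclear regions. Of these, 3 were the MIR10A, MIR196B and MIR10B regions described above, and without the hairpin regions the share was 0.64% (4 of 625, 0.249 to 1.63). Another 3 lay in the HOXA9-side segment: chr7:27180968-27181224, 257 nt wide with a score of 212, the widest of all members, and chr7:27146653-27146701 and chr7:27147159-27147341, 49 and 183 nt wide with scores of 156 and 121.

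The remaining region of this kind, and the highest of HOXC, stood nearly alone. It was chr12:54427751-54427817, 67 nt wide with a score of 141, in the HOXC9 to HOXC4 segment. Its run held only 1 other region and had a summed score of 144. RefSeq lists a further microRNA gene, MIR615, in that segment, and whether this region lies on it was not tested. A second solitary region of the same segment, chr12:54389218-54389258, was 41 nt wide with a score of 49 and had no neighbour within 1000 nt on its strand.

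Below a score of 100, and apart from the miR-196a hairpins and that solitary region, the highest members of each cluster lay in runs of 10 or more regions. In HOXA the region chr7:27202110-27202270 had a score of 85. In HOXB the regions chr17:46626814-46626895 and chr17:46620904-46621035 had scores of 90 and 79 in the HOXB1 to HOXB4 segment, and chr17:46671202-46671282 had a score of 52 in the HOXB5 to HOXB9 segment. In HOXC the regions chr12:54406226-54406343 and chr12:54405980-54406058 had scores of 46 and 35. In HOXD, all in the HOXD13 to HOXD8 segment, chr2:176959581-176959635 had a score of 68, chr2:176973741-176973784 a score of 48, chr2:176959303-176959339 a score of 33 and chr2:176996623-176996701 a score of 31. Leaving the 5 hairpins of the rule aside, the highest score was thus 212 in HOXA, 141 in HOXC, 90 in HOXB and 68 in HOXD.

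Members were joined into runs, each holding regions of 1 strand with gaps of at most 1000 nt. The 573 HOX-strand regions formed 105 runs, 37 of them a single region. There were 19 runs with 10 or more regions, with a median span of 2444 nt, and they held 61.4% of the HOX-strand regions and 65.6% of their score. HOXA had 6 such runs, HOXB 5, HOXC 3 and HOXD 5. Runs were not formed over the rest of the list, so how usual such runs are there was not tested. A region of the same strand lay within 100 nt of 434 of the 632 members (68.7%, 65.0 to 72.2), against 53.4% of the other nuclear regions (53.2 to 53.6). By strand the share was 71.2% on the HOX strand (408 of 573) and 44.1% on the other (26 of 59, 32.2 to 56.7).

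The runs took different shapes. The one with the most regions was in HOXD, with 38 regions from 176973655 to 176982098, which covered 16.7% of its 8444 nt and had a summed score of 229. Next to the outer edge of HOXD, where RefSeq places HOXD13, 31 regions from 176957678 to 176960968 had a summed score of 315. The densest cover among the 19 was in HOXA, where 16 regions from 27202054 to 27203451 covered 84.7% of 1398 nt with a median score of 18.5. Among these 19 runs the next highest median score was 8, found for 1 run of HOXA and 1 of HOXB. The runs with the most regions in the other clusters held 29 regions in HOXA (27232513 to 27237954), 20 in HOXB (46626244 to 46628170) and 28 in HOXC (54446991 to 54449807), the last at the cluster edge where HOXC4 ends. Their summed scores were 121, 237 and 125, all below the 485 of the single MIR10A region.

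**Figure D4:**
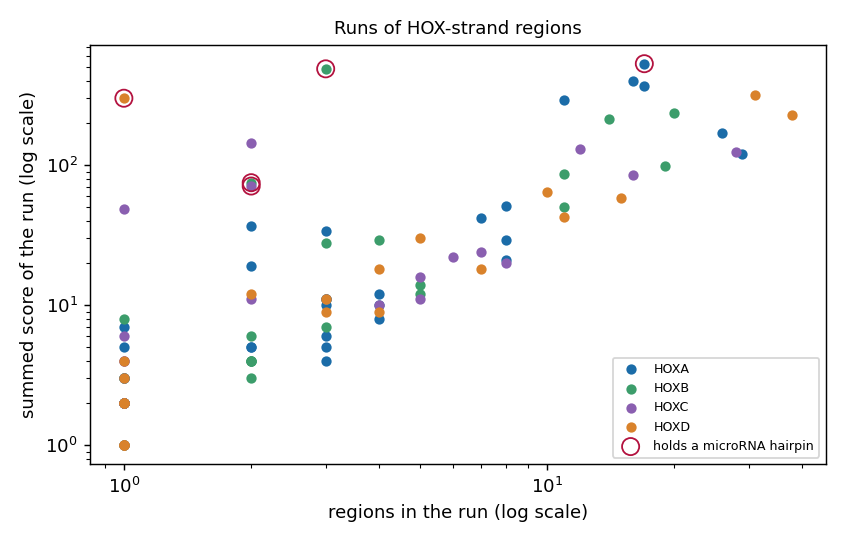
Summed score against the number of regions for the 105 HOX-strand runs, both on log scales, with 1 colour per cluster and red rings round the runs that hold a microRNA hairpin. The ringed runs of 1 to 3 regions sit above unringed runs of the same size, apart from a HOXC run of 2 regions with a summed score of 144, and MIR10B reaches 301 with a single region.

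The 59 regions on the other strand were weak and were found in all 4 clusters. Their median score was 2 (highest 30), against 3 on the HOX strand (highest 485), and 2 of them reached a score of 10 (3.39%, 0.935 to 11.5), against 91 on the HOX strand (15.9%, 13.1 to 19.1). HOXA held 32 of the 59. By their middle, 15 fell in the HOXA9-side segment and 17 in the HOXA10 to HOXA13 segment, among them a region opposite MIR196B. RefSeq lists antisense RNA genes on that strand on both sides, HOXA-AS2 and HOXA-AS3 in the HOXA9-side segment and HOXA11-AS beyond MIR196B. A group of 10 regions ran from 27191996 to 27195556 with a summed score of 35. In HOXD, 12 of the 14 lay between 177037922 and 177042214 on chromosome 2, in the segment whose listed minus-strand gene is HAGLR, a long noncoding RNA. One of them, chr2:177038980-177039009, scored 30, above every other region found on the strand opposite the HOX genes in the 4 clusters. In HOXC, 6 of the 7 lay within 592 nt, from 54356170 to 54356761, with scores from 2 to 7, in the HOXC13 to HOXC10 segment. RefSeq lists LOC105369775 on that strand there, and the segment also holds the long noncoding RNA gene HOTAIR, for which the table used gives no strand. In HOXB, 5 of the 6 lay in the HOXB5 to HOXB9 segment, where HOXB-AS3 is on that strand, with scores from 1 to 7.

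Overlap of both strands was concentrated in HOXA. A region of the opposite strand overlapped 18 of the 632 members (2.85%, 1.81 to 4.46), against 0.298% of the other nuclear regions and 0.306% of all nuclear regions. Of these 18, 16 lay in HOXA and 2 in HOXD. They included MIR196B, where a plus-strand region, chr7:27209148-27209181, 34 nt wide with a score of 5, lay opposite the 312 of the hairpin strand and held 21 of the 22 nt opposite hsa-miR-196b-5p. Whether this plus-strand region is separate RNA was not tested.

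Score and width over all members were close to those of the rest of the list, with a heavier upper end. The median score was 3 in the HOX clusters (quartiles 2 and 6) and 3 in the other 211040 nuclear regions (quartiles 2 and 5). Scores of 10 or more were held by 93 members (14.7%, 12.2 to 17.7), against 11.0% of the other nuclear regions and of all nuclear regions alike, a 1.34-fold share. Without the hairpin regions the share was 14.1%. With them it was 16.9% in HOXA, 14.9% in HOXB, 12.0% in HOXC and 13.5% in HOXD, where the Wilson intervals of HOXB, HOXC and HOXD included the share of the rest. The median width was 34 nt (quartiles 26 and 47), against 32 nt (25 and 43) for the other nuclear regions. From a score of 2 upward, the median width rose with score in both. At a score of 1 it was 30 nt in the HOX clusters and 28 nt in the rest, at a score of 2 it was 28 nt in both, and at scores of 21 to 50 it was 67.5 nt in the HOX clusters and 66 nt in the rest. No test was made of these differences, since regions are not replicates and the list holds 1 pooled value for each.

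**Figure D5:**
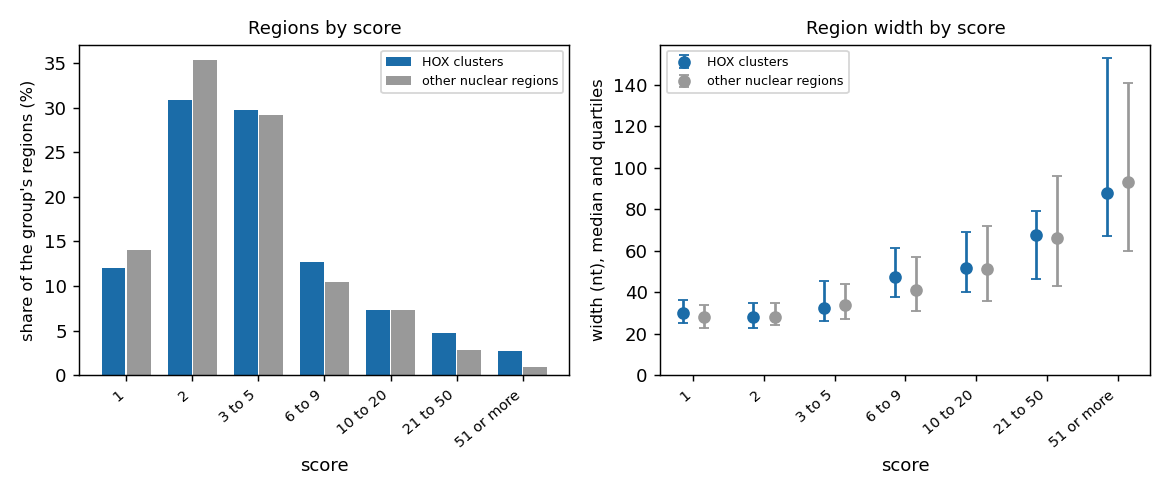
Share of regions in each class of score (left, %) and region width in each class (right, nt; points are medians and bars run between the quartiles) for the 632 regions of the HOX clusters (blue) and the 211040 other nuclear regions (grey). Scores of 51 or more make up 2.69% of the HOX clusters and 0.876% of the rest, and median widths rise with score in both from a score of 2 upward.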

How the data were processed

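The deposited file is 1 list of regions with no value per library. Per the file headers it is on hg19, names its libraries AGO_good and was filtered, with 0.05 in the filter's name. Which libraries AGO_good holds is not stated. BWA 0.5.8c was used, per the submitters' processing notes. The region caller is not stated in the files or labels. The score, as deposited by the authors, is a whole number from 1 to 1000 with no stated unit, and the highest value may be a ceiling. Coordinates are those of the deposited list, whose starts count from 0, and are printed counting from 1.

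The cluster and hairpin bounds are those of the rule that chose the members. Members, segments and thresholds were chosen with earlier results of these data known. Gene order, strands and microRNA sequences came from RefSeq tables (GRCh38.p14), and regions were placed on hairpins by their offset in hg19, each hairpin having the same length in both. Regions were assigned to a segment by their middle. The regions named are those on hairpins, some of the 3 nearest to each, the 5 of highest score and the run with the most regions in each cluster. Other regions, runs and gaps named were chosen after their values were seen. No test was made, and Wilson intervals are at 95%. The functions were checked on 1510 simulated regions, where 5 of 5 measures came back as simulated. Versions were matplotlib 3.10.9, scipy 1.17.1, pandas 2.3.3, numpy 2.4.6 and Python 3.11.15.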

Additional observations from a re-analysis of the deposited data

How the results depend on the processing

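The limits are those of a pooled list: there is no value per library, the depth is unknown, and scores of neighbouring regions are not independent. No paired analysis was possible because the 1 pooled list gives no value per library. The share of seed matches in the members was not run, with either seed length, since the sequence of hg19 was not used here. Of 24 alternatives for 9 values, 15 stayed within the Wilson interval of the value or within 1.5 times a count, and 9 moved further. The share of regions on the HOX strand (90.7%) was 94.2% at scores of 3 or more and 93.4% without HOXA, an alternative added after the values were seen, as were 2 others. The number of regions (632) was 361 at scores of 3 or more. By summed score in place of region number, the segment below the first hairpin held 76.6% in HOXA (62.5% of regions), 56.5% in HOXB (36.8%), 9.80% in HOXC (20.4%) and 86.9% in HOXD (77.3%), and at scores of 3 or more it held 83.9% of the regions in HOXD. Runs of at least 10 regions numbered 11 with gaps of at most 100 nt, against 19. The 1.34-fold share of scores of at least 10 ranged from 1.28 to 1.45 over its 4 alternatives. The 7 hairpin regions stayed 7 with both other overlap rules.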

Other observations

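In the 18 runs of at least 10 HOX-strand regions without a hairpin, the region of highest score lay nearer the 3′ end of the run in 13. On a scale from 0 at the 5′ end to 1 at the 3′ end of the bound strand, its median position was 0.604, with a range from 0.0128 to 0.985. It was nearest the 3′ end in the HOXA run from 27146653 to 27148206, where the score of 156 stood at 0.985, and nearest the 5′ end in the HOXD run from 176973655 to 176982098, where the score of 48 stood at 0.0128. Where these runs lie in their messenger RNAs was not analysed here.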
